A study of Mus musculus with 3 samples.

Results

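Stab1-high endothelial cells (ECs) of the fetal bone marrow (BM) were taken from the E18.5 EC library, which holds CD31-sorted ECs of wild-type C57/B6 embryos late in gestation (E18.5). They numbered 1045 of the 2486 endothelial-gated cells and of the 4043 cells of that library, and of 24875 cells in the whole series. The members were chosen by their molecule counts of 6 genes. A cell entered the endothelial gate with at least 20 molecules in all, at least 5 molecules of Pecam1 and Kdr together making up at least 5% of its molecules, no Ptprc and no Gja4. A gated cell was a member with at least 3 molecules of Stab1 and fewer than 3 of Vwf. The comparison cells were the 397 gated cells with no Stab1, called Stab1 = 0 cells. They had no limit on Vwf, and 36 of them had at least 3 molecules of it. The 2 further libraries, named E18.5 BM cells for the fetus and Adult BM cells for the adult, were made from wild-type C57/B6 marrow after depletion of lineage-positive haematopoietic cells. Each library is a pool of several animals and is the only library of its group, so no test between conditions was possible, and every interval below is a 95% interval for counting error only. Stage cannot be told apart from library, sorting and depth. The series' description adds endomucin to the CD31 gate of E18.5 EC and the methods do not, and an endomucin gate would bear on which ECs are present.

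Sinusoids are the wide, thin-walled venous vessels of the marrow through which blood cells enter the circulation. Their ECs carry scavenger receptors such as stabilin-1, the product of Stab1, which take up modified proteins and debris from the blood. ECs of the marrow are also a source of factors that support haematopoietic stem and progenitor cells, among them stem cell factor, encoded by Kitl, and the chemokine encoded by Cxcl12, and they both send and receive Wnt signals. Of the 8 sinusoidal markers considered, Stab1 and Lepr were seen in the series, and Stab1 was used to choose the cells. The identity as sinusoidal ECs therefore rests on 1 gene in these data, and the cells are called Stab1-high here. That gene was not confined to the gated cells. Of 467 cells left out of the gate for Gja4, 155 had at least 3 Stab1 molecules, as had 78 of 270 left out for Ptprc.

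Counts were read as molecules per 10000 molecules of the group, called the level. Primers amplify each target with their own efficiency, so levels were compared between groups of cells and not between genes. The members held 88045 molecules with a median of 71 per cell (range 20 to 389), and the Stab1 = 0 cells held 28025 with a median of 61. The 125 targets seen in the series included 111 seen in E18.5 EC and 90 seen in the members. The paper describes a larger panel, and genes are said to be in the panel here where they were among these 125. Of the molecules counted before error correction, 21.2% remained in E18.5 EC against 41.6% and 35.9% in the other libraries. E18.5 EC shared 58 cell barcodes with E18.5 BM cells and 38 with Adult BM cells, 12 and 9 of them members. All 18 calls below were made without the shared barcodes too.

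Stab1 was spread continuously over the gated cells, with no gap at the limit of 3. The members had a median of 6 Stab1 molecules and up to 64. Just inside the limit, the 199 cells with exactly 3 molecules and Vwf under 3 had a Myc level of 221 and a Kitl level of 407. Just outside, the 270 cells with exactly 2 and Vwf under 3 had 158 and 467. Members made up 42.04% of gated cells (interval 40.1% to 44.0%). A further 719 gated cells (28.9%) had 1 or 2 Stab1 molecules, and 325 (13.1%) had at least 3 molecules of both Stab1 and Vwf.

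**Figure D1:**
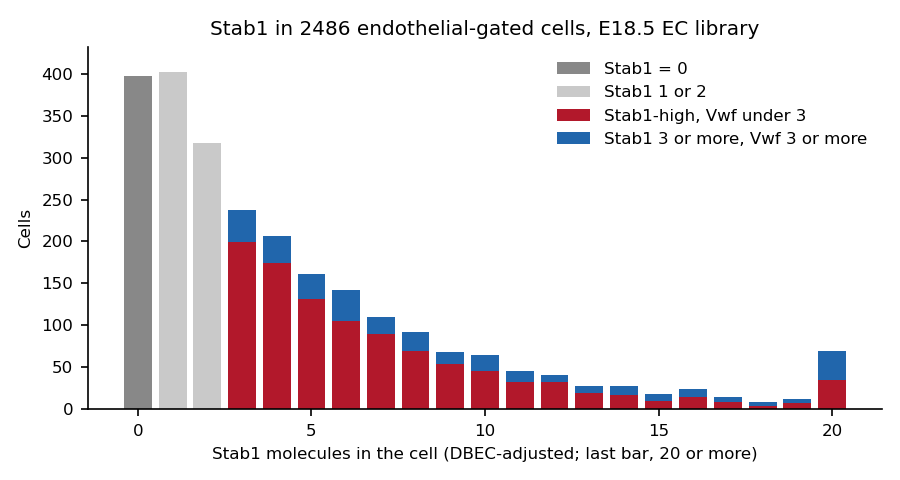
Number of endothelial-gated cells (y axis) by Stab1 molecules in the cell (x axis, last bar 20 or more) in E18.5 EC, stacked by group. The counts are highest at 0 (397 cells) and 1 molecule and fall from 2 molecules on through the members, whose median is 6, with no gap at the limit of 3.

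Stab1 lies at chr14:31139013-31168641 on the minus strand (GRCm38). The 250 bases before its start, chr14:31168642-31168891 in RefSeq's GRCm38.p6 annotation, are shown because Stab1 defines the cells. The capitals mark GGAA, the core letters bound by ETS factors, a family known for regulating endothelial genes, on either strand (TTCC on the other), with 6 matches. Stab1: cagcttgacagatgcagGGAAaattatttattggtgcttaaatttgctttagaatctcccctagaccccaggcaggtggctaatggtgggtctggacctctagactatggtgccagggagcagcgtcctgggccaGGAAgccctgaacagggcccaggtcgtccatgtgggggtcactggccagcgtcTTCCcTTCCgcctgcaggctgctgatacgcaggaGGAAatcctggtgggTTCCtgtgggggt
These 4 letters occur on either strand in 93.4% of 32851 RefSeq windows of this length, so their presence sets Stab1 apart from few genes, and a match does not show that a factor binds.

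Against the Stab1 = 0 cells, the members had more Myc, the Wnt receptor genes Fzd5 and Lgr4, Ptn, Ccne1 and Wnt2, and less Cdh13, Hey1, Cxcl12, Mgp, Fbn1 and the mural genes Acta2, Tagln and Rgs5. A target was called where the ratio of levels was at least 2 or at most 0.5 with at least 20 molecules over both groups. Of 52 such targets outside the 6 genes of the rule, 10 were called higher (19.2%) and 8 lower (15.4%), and the median ratio over the 52 was 1.26. The rule chose the members in these same cells, so the ratios describe the members and none was tested. The rule's genes took 39.6% of the members' molecules and 34.6% of those of Stab1 = 0 cells, and leaving them out of the total multiplies every ratio by 1.08 (0.12 on the log2 scale).

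Myc, the transcription factor that drives growth and a known target of Wnt signalling, was counted 2300 times in 687 members and 238 times in Stab1 = 0 cells, which are levels of 261 and 84.9. The ratio was 3.08 (2.69 to 3.53), and the 5 members with the most held 4.91% of the molecules. With RSEC-adjusted cells and values it was 1.86 and not called. With every cell thinned to 50 molecules, which left out 242 members and 142 Stab1 = 0 cells, Myc was found in 56.0% of members (65.7% unthinned) and 23.5% of Stab1 = 0 cells. The blood cells of the library, 845 cells with at least 3 Ptprc and no Kdr and a median depth of 119, were at 37.3%, and the arterial ECs, with at least 3 Gja4 and a median depth of 122.5, at 22.7%. Members were thus above each of these groups. Gated cells with at least 3 of both Stab1 and Vwf were close to members, at 54.0%, so high Myc was not particular to members. Ccne1, the G1/S cyclin E1, had levels of 55.2 and 24.98 (ratio 2.21, interval 1.72 to 2.88), a call that 7 of 16 other settings did not make. Other cell cycle targets were higher by less than 2-fold. Cdk1 had a ratio of 1.60 (1.47 to 1.75), Top2a 1.65 (1.49 to 1.83) and Mki67 1.27 (1.15 to 1.41), and the cyclin D1 gene Ccnd1 had 1.08. Cells with at least 5 molecules of Cdk1, Top2a and Mki67 together made up 30.01% of members (26.9% to 33.3%) and 20% of Stab1 = 0 cells (15.3% to 25.4%) at 50 molecules per cell, and 31.9% and 21.9% unthinned. The thinned share was 3.61% of arterial ECs and 49.2% of blood cells, which left out 15 and 64 shallower cells, and no cell cycle state is read from it.

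**Figure D2:**
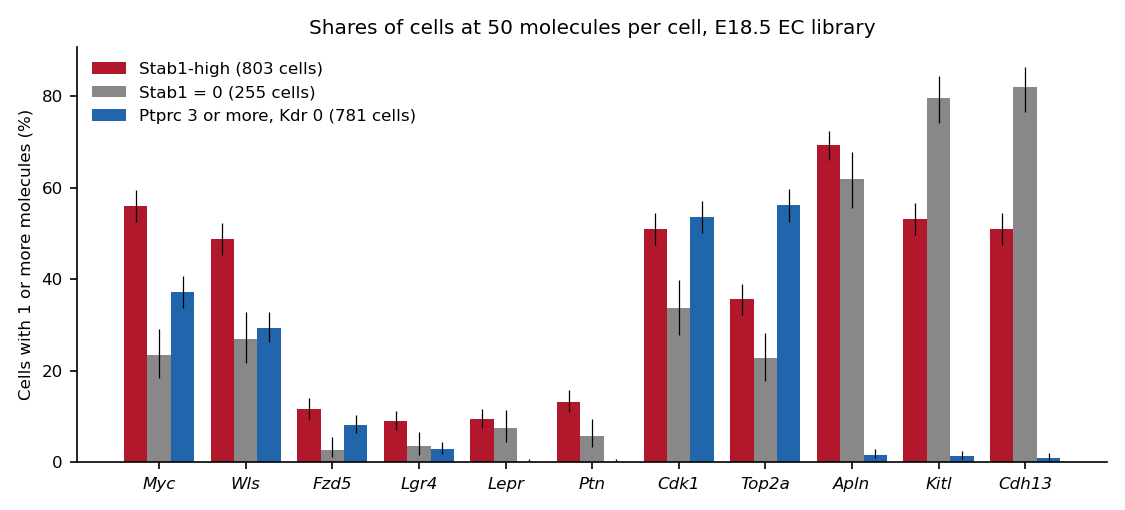
Percent of cells with at least 1 molecule of each target (y axis) after thinning every cell to 50 molecules, in members, Stab1 = 0 cells and blood cells of E18.5 EC, with 95% Clopper-Pearson bars. Of these groups, Myc and Wls are most frequent in members, and Kitl and Cdh13 are more frequent in Stab1 = 0 cells.

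Among Wnt genes, the receptors Fzd5 and Lgr4 were called higher in members and the ligand-secretion gene Wls came close to the limit. Fzd5, a frizzled receptor required in vascular development, was counted 212 times in members and 15 times in Stab1 = 0 cells, with levels of 24.1 and 5.35 and a ratio of 4.50 (2.67 to 8.18). Lgr4, a receptor for R-spondins that strengthens Wnt signalling, had levels of 20.9 and 7.85 (ratio 2.66, interval 1.71 to 4.35). In thinned cells Fzd5 was found in 11.7% of members (16.4% unthinned), 2.75% of Stab1 = 0 cells and 8.19% of blood cells, and Lgr4 in 8.97% (14.7% unthinned), 3.53% and 2.94%. Arterial ECs had Fzd5 in 4.69% and Lgr4 in 7.94% of thinned cells. Gated cells with at least 3 of both Stab1 and Vwf had them in 10.7% and 7.05%. Lgr4 was thus close to members in both of these endothelial groups, and Fzd5 in the second. Of the 11 frizzled and co-receptor genes in the panel, 6 had enough molecules, 2 were called higher and none lower, with a median ratio of 1.74 against 1.26 over all 52. Fzd4, the receptor of Norrin, had a ratio of 1.57 (1.10 to 2.28) and Fzd6 of 1.02. Wls, the carrier that every Wnt ligand needs for secretion, had levels of 142 and 72.1, and its ratio of 1.97 (1.70 to 2.30) stood just under the limit of 2 and passed it, at 2.14, with the rule's genes left out of the total. The 5 intracellular Wnt components with enough molecules had no call. They included the scaffold Axin1 at 1.43, the cytoplasmic mediator Dvl1 at 1.28, Apc of the destruction complex at 1.20 and the cyclin Y gene Ccny at 1.63.

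Wnt ligands were rare. Of the 17 in the panel, 2 reached 20 molecules over both groups. Wnt2 was counted 53 times in 23 members (2.20% of members) and 0 times in Stab1 = 0 cells, where a count of 0 allows a level of up to 1.07, so its level was at least 5.62-fold higher in members. The 5 members with the most held 50.9% of the molecules. Wnt5b, a ligand of the beta-catenin-independent branch, was counted 37 and 7 times (ratio 1.68, interval 0.74 to 4.47). Wnt10a, Wnt4, Wnt5a, Wnt9a and Wnt9b were counted 6 times or fewer in members, and the other 10 were not found, which at this depth allows a level of up to 0.34 each.

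The 23 members with Wnt2 differed from the other 1022 in more than Wnt2. They were singled out after their values were seen, and their profile is given as a description. They had a median of 16 Stab1 molecules against 6 and a median depth of 89 against 71. Ptn was found in none of the 23 and in 17.0% of the others. Apln was found in 21.7% and 75.1%, and Ecm1, an extracellular matrix gene, in 65.2% and 41.98%. Lepr, the leptin receptor gene, was in 39.1% and 13.6%. Thinning to 50 molecules kept these orders. Apln was in 27.8% of 18 cells against 70.1%, Lepr in 27.8% against 8.92% and Ecm1 in 44.4% against 30.7%. The intervals of the thinned shares were apart for Apln (9.69% to 53.5% against 66.7% to 73.3%). They overlapped for Lepr (9.69% to 53.5% against 7.02% to 11.1%), Ecm1 (21.5% to 69.2% against 27.5% to 34.1%) and Ptn. With 18 cells, the thinned shares do not settle the order for Lepr, Ecm1 or Ptn. In the rest of the library, the gated cells with at least 3 of both Stab1 and Vwf held 138 Wnt2 molecules in 23 cells. Cells with Gja4 outside the gate held 160 in 34 cells.

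The targets lower in members included Cdh13 and, short of the limit, Kitl and Igfbp7, and a set of arterial and mural genes. Cdh13, the adhesion molecule T-cadherin, had levels of 187 in members and 421 in Stab1 = 0 cells (ratio 0.44, interval 0.41 to 0.48) and was found in 50.9% and 82.0% of thinned cells. Kitl had levels of 301 and 593, and its ratio of 0.51 (0.48 to 0.54) lay just above the limit of 0.5, which it passed in 7 of the other settings. Kitl, like Apc, Fbn1, Cdc73 and Wnt10a, has more than 1 amplicon, which may count the same molecules, so intervals of these genes may be too narrow. Igfbp7, a secreted binding protein abundant in endothelium, had levels of 1028 and 1941 (0.53, interval 0.51 to 0.55), and Mecom, a transcription factor of arterial ECs and stem cells, 24.9 and 40.0 (0.62, interval 0.49 to 0.79). Blood cells had Kitl in 1.41% and Cdh13 in 1.02% of thinned cells, far under both endothelial groups.

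Hey1, a Notch target of arterial ECs, had levels of 15.7 and 52.8 (ratio 0.30), Cxcl12 3.75 and 26.4 (0.14), the matrix protein gene Mgp 1.59 and 26.4 (0.0602) and the fibrillin gene Fbn1 4.09 and 18.2 (0.22). Of the 74 Mgp molecules in Stab1 = 0 cells 77.0% lay in 5 cells, and with RSEC-adjusted cells and values its ratio turned to 1.21. Cxcl12 was found in 21 Stab1 = 0 cells, of which 5 held 67.6% of its molecules. For Hey1, 1 Stab1 = 0 cell held 40 of 148 molecules. Arterial ECs had levels of 307 for Hey1, 449 for Cxcl12 and 435 for Mgp. Of the 6 arterial markers in the panel, Gja4 was at 0 by the rule, 3 of the other 5 were called lower and none higher, against 15.4% lower over all 52, with a median ratio of 0.30 against 1.26. Sema3g, at 0.80, and Fbln5, at 0.69, were not called. The summed level of the 6 was 172 in members and 318 in Stab1 = 0 cells, where 23.9% of cells held at least 3 such molecules against 18.47% of members. The mural genes Acta2, Tagln and Rgs5 had ratios of 0.11, 0.14 and 0.05 from 20 molecules in all in members, and 4 Stab1 = 0 cells (1.01%) but no member held 3 or more mural molecules. In Stab1 = 0 cells, 5 cells held 66.7% of the Acta2, 71.4% of the Tagln and 71.9% of the Rgs5 molecules. The calls of Acta2, Tagln and Rgs5 were kept in 10, 11 and 9 of 16 other settings. Leaving out cells with at least 2 molecules of Hey1, Cxcl12, Mgp, Sema3g, Rgs5, Acta2 or Tagln kept 951 members and 327 Stab1 = 0 cells, and there Cxcl12 had a ratio of 2.003, Mgp 0.72 and Hey1 0.50. The same step removes the cells in which those genes are counted. In these cells Myc was at 2.94, Fzd5 at 4.03, Cdh13 at 0.42 and Kitl at 0.48, each inside the interval it had over all cells.

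Ptn, the growth factor pleiotrophin, had levels of 75.5 and 27.5 (ratio 2.75, interval 2.17 to 3.53). In thinned cells Ptn was found in 13.2% of members and 5.88% of Stab1 = 0 cells. It was in 13.4% of arterial ECs and 13.4% of gated cells with at least 3 of both Stab1 and Vwf, so it was not particular to members. It was counted in 174 members, of which 5 held 18.6% of its molecules, with up to 34 in a cell. The call was lost in 4 of 16 other settings, and the ratio fell to 1.28 without cells with markers of other classes, a step that counts Ptn itself among those markers. Ccn3, a matricellular signalling gene, had a ratio of 0.70, and 198 of its 415 molecules in members came from 1 cell. Mmp13, a collagenase of bone, was counted 32 times in 17 members and 0 times in Stab1 = 0 cells, at least 3.395-fold higher, with 62.5% of its molecules in 5 cells. The Mmp13 call was lost in 7 of 16 other settings, and with RSEC-adjusted cells and values its ratio was 0.92. The bone matrix gene Spp1 was counted 48 and 7 times (ratio 2.18, interval 0.98 to 5.72) and reached a level of 615 in blood cells. It was found in 2.37% of thinned members, below the 24.1% of blood cells, so no expression in members is read from that share. Its ratio was past the limit in 11 of 16 other settings. The summed level of the 7 osteoblast markers was 11.7 in members, 4.996 in Stab1 = 0 cells and 622 in blood cells. Of the 5 haematopoietic markers in the panel, Ptprc was at 0 in members by the rule. Kit was at 0 in members and in blood cells too, so its absence does not set members apart from blood cells. The summed level was 131 in both groups against 4195 in blood cells, which were chosen by Ptprc. For osteoclast markers it was 3.63, 4.64 and 793, with Atp6v0d2 at 0 in both endothelial groups. For the 6 mesenchymal markers, Ptn among them, it was 123 and 102, with Adipoq and Cp at 0. For chondrocyte markers it was 1.59 and 0.36. The part of such molecules in the ratios was not tested.

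Lepr, the other sinusoidal marker of the panel, showed no clear difference between members and Stab1 = 0 cells. It was counted 167 times in 148 members and 39 times in 34 Stab1 = 0 cells, with levels of 19.0 and 13.9 and a ratio whose interval included 1 (1.36, interval 0.96 to 1.98). In thinned cells it was found in 9.46% and 7.45%, against 0.13% of blood cells. Arterial ECs had it in 5.78%.

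A minority of the targets changed step by step with Stab1 among the gated cells. Cells were put into 5 classes with 0, 1 to 2, 3 to 4, 5 to 9 and 10 or more Stab1 molecules, the last 3 being the members, and cells with 1 to 2 were limited to Vwf under 3. The classes were not matched for depth. Stab1 itself is part of the total and rises over the classes, which lowers the level of every other target there. Its part in the steps was not tested. Myc had levels of 84.9, 149, 237, 264 and 284 in this order, and Wls had 72.1, 79.9, 115, 148 and 164. Fzd5 went from 5.35 through 13.6, 16.4 and 25.3 to 30.7, and Lgr4 from 7.85 through 13.2, 15.7 and 20.8 to 26.7. In the opposite direction Kitl had 593, 512, 397, 290 and 212, Cdh13 421, 375, 233, 184 and 140, and Igfbp7 1941, 1760, 1154, 997 and 934. Lepr stayed between 13.9 and 16.6 in the first 4 classes and was 27.1 in the last. Of 52 targets, 10 were higher at every step and 4 lower at every step, and 38 did neither. Several single steps, among them those of Lepr up to 9 molecules and of Mecom between 1 and 9, lay within the counting intervals. Cdk1, Top2a and Mki67 were highest in the class with 3 to 4 molecules, at 403, 292 and 279. Wnt2 was highest in the last class, at 15.2 against 3.65 and 1.41 in the other members.

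**Figure D3:**
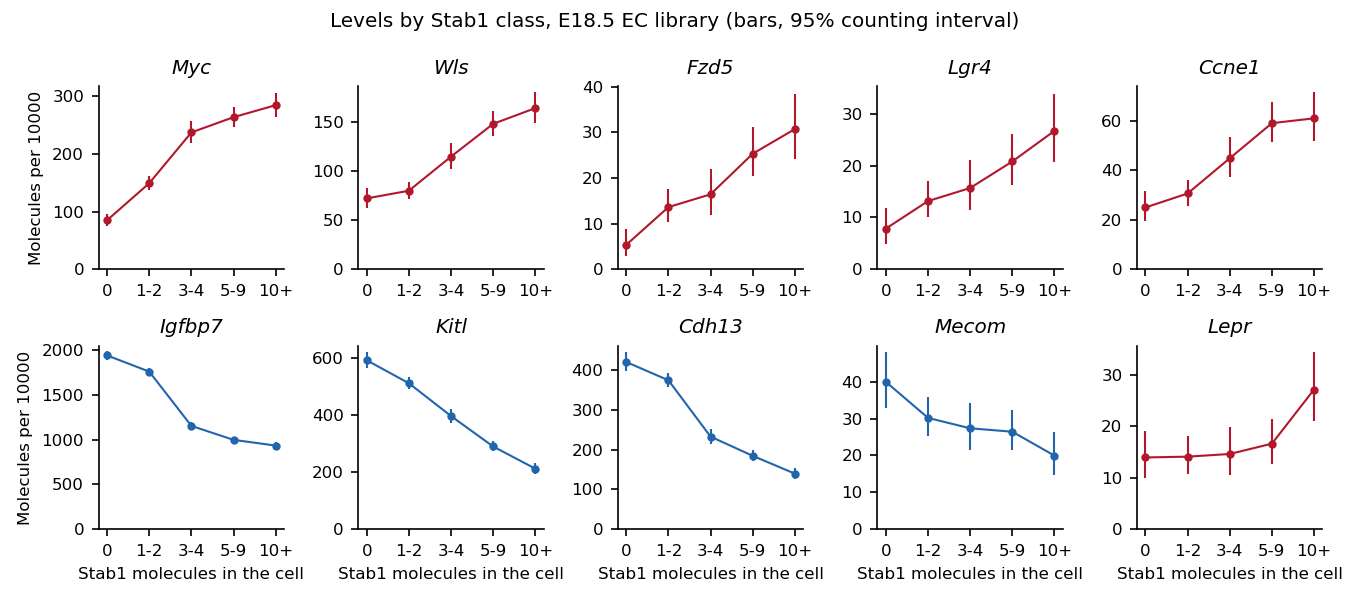
Level of 10 targets (y axes, molecules per 10000, with 95% counting intervals) in 5 classes of gated cells by Stab1 molecules (x axes) in E18.5 EC. Myc climbs from 84.9 to 284 and Kitl descends from 593 to 212.

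Cells with as much Stab1 but at least 3 Vwf, the gene of von Willebrand factor stored by venous and large-vessel endothelium, were close to members in most targets. Of 52 targets outside the rule, 1 was called higher in members (1.92%) and 7 lower (13.5%). Myc was at 261 in members and 266 in the 325 Vwf-bearing cells, and Wls at 142 and 149. The lower targets included Wnt2 (6.02 and 37.8, ratio 0.16), Wnt9b (0.11 and 9.05) and Mgp (1.59 and 14.3). The one higher target was Ccn3 (ratio 3.31), and without the member that held 198 of its 415 molecules its ratio was 1.74, under the limit. Fbln5 was at 124 and 204, and the Vwf-bearing cells were deeper, with a median of 97 molecules.

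The same rule was applied to the other 2 libraries. E18.5 BM cells gave 44 members and 145 Stab1 = 0 cells among 315 gated cells, so that members were 14.0% of them (10.3% to 18.3%), and Adult BM cells gave 575 and 189 among 993 (57.9%, 54.8% to 61.0%). Sorting, depletion, depth and tissue cannot be told apart in these shares. In E18.5 BM cells, 6 of 40 targets were called higher in members (15%) and 6 lower (15%). Myc (ratio 2.39, interval 1.91 to 2.99), Ptn (7.63) and Wls (3.49) were called higher, and Cdh13 (0.34) and Kitl (0.48) lower. Of the 150 Myc molecules in the 44 cells 50 lay in 1 cell, and without it the ratio was 1.70 (1.31 to 2.19) and no longer called. Without the cell with most of the target, Ptn was at 5.67 and Wls at 2.87. Of the 18 targets called in E18.5 EC, 8 had enough molecules there, 5 had the same call and 1 the opposite one. Ccne1 (ratio 0.81, interval 0.43 to 1.43) and Hey1 (1.09, interval 0.54 to 2.08) had no call. Both lay on the other side of 1 than in E18.5 EC, with intervals that included 1. The opposite call was that of Mgp, with a ratio of 3.26. There 53 of 55 molecules came from 1 cell, without which the ratio was 0.125. Ptn was also concentrated, with 79.8% of molecules in 5 cells. Fzd5 and Lgr4 had 5 and 4 molecules in the 44 members, too few for a call. Set beside the E18.5 EC members directly, the 44 cells gave 8 targets higher in E18.5 EC (15.7% of 51) and 8 lower (15.7%), with Myc at 261 and 333. Of the 8 higher targets, 5 were at 0 in the 44 cells, where a count of 0 allows a level of up to 6.65, above their levels in E18.5 EC.

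In Adult BM cells, 31 of 68 targets were called higher in Stab1-high cells (45.6%) and 13 lower (19.1%). Myc had levels of 95.1 and 10.9 (ratio 8.76, interval 6.01 to 13.3), Wls 137 and 21.3 (6.43), and Lgr4 8.02 and 3.10 (2.59, interval 1.23 to 6.28). Kitl (0.30), Cdh13 (0.32) and Hey1 (0.16) were lower. Of the 18 targets called in E18.5 EC, 17 had enough molecules, 13 had the same call, all 17 lay on the same side of 1 and none had the opposite call. Fzd5 had a ratio of 1.91 and missed the limit. Adult Stab1 = 0 cells were another mixture than fetal ones, with Srgn at 2943, Vwf at 527 and Ecm1 at 1116, which bears on every adult ratio. Its part was not tested. Apln, a ligand of sprouting and tip ECs, had a ratio of 8.06 in the adult library and 1.14 in E18.5 EC, and the calcium-regulating hormone gene Stc1 9.42 and 0.76.

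**Figure D4:**
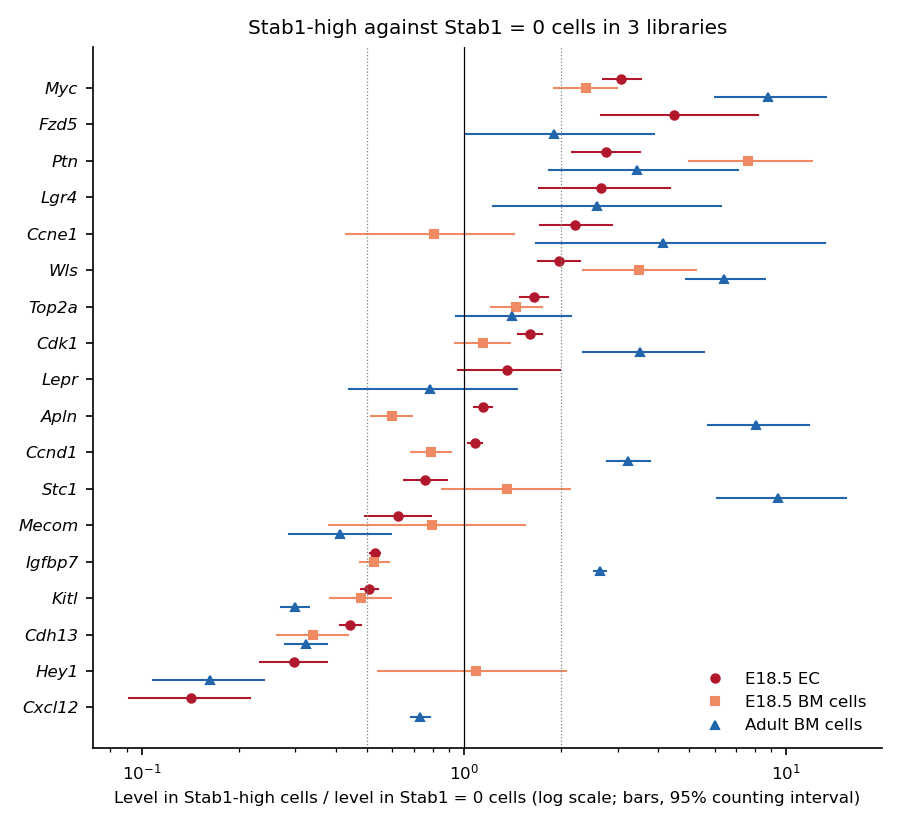
Ratio of the level in Stab1-high cells to that in Stab1 = 0 cells (x axis, log scale) for 18 targets in 3 libraries, with 95% counting intervals, a line at 1 and dotted lines at 2 and 0.5. Myc and Wls lie right of 1 and Kitl and Cdh13 left of 1 in each library, and Igfbp7 is at 0.53 in E18.5 EC and 2.64 in Adult BM cells.

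Set beside adult Stab1-high cells, fetal members had more of the cell cycle targets, Apln, Kitl, Cdh13 and Wnt2, and less Igfbp7, Wnt5b and Cxcl12. Of 71 targets, 22 were called higher in the fetal members (31%) and 31 lower (43.7%), with each group from 1 library and a median depth of 71 in the fetal and 100 in the adult cells. Top2a had levels of 270 and 17.4 (ratio 15.4, interval 12.9 to 18.7), Cdk1 361 and 34.2 (10.5), Mki67 220 and 21.8 (10.1), Ccne1 55.2 and 8.02 (6.88) and Ccnd1 774 and 236 (3.28). Cells with at least 5 molecules of Cdk1, Top2a and Mki67 at 50 molecules per cell were 30.01% of the fetal and 1.65% of the adult members. Myc was at 261 and 95.1 (2.75). All of these cell cycle targets and Myc were called higher.

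Kitl was at 301 in fetal and 96.7 in adult members (ratio 3.11, interval 2.86 to 3.39) and Cdh13 at 187 and 45.7 (4.08). Apln was at 480 and 106 (4.52). Igfbp7 ran the other way, at 1028 and 2175 (0.47), and Ecm1 at 83.3 and 170 (0.49). Of Wnt ligands, Wnt2 was at 6.02 and 0.70, from 53 and 5 molecules, and Wnt5b at 4.20 and 24.5 (0.17). Fzd5 (2.72) and Lgr4 (2.61) were higher in the fetal cells, and Fzd4 (1.18), Fzd6 (1.04) and Wls (1.04) had similar levels. With RSEC-adjusted molecules, which have passed the first of the pipeline's corrections only, Fzd5 had a ratio of 1.23 and Lgr4 of 1.91, and with raw molecules 1.56 and 1.84, so neither was called. Lepr was at 19.0 and 5.49 (3.46), while its ratio was 1.28 with RSEC-adjusted molecules, 1.48 with raw molecules and 9.88 in thinned cells.

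Many of the targets lower in fetal members are markers of other cell classes, and several of them were also counted in adult blood cells and adult Stab1 = 0 cells. The osteocalcin-related gene Bglap3 was at 0.45 in fetal and 338 in adult members, and adult Stab1 = 0 cells and blood cells had 255 and 610. Cxcl12 was at 3.75 and 354, with 484 in adult Stab1 = 0 cells and 399 in adult blood cells, and 5 adult members held 51.4% of its molecules. Srgn, a proteoglycan of blood cells, was at 106 and 1057, with 3442 in adult blood cells. All 7 osteoblast, 3 of 3 chondrocyte and 4 of 4 mural markers with enough molecules were called lower in fetal members. Over all 71 targets the share called lower was 43.7%. Not every list went this way. The summed level of mesenchymal markers was 123 in fetal and 44.2 in adult members. For osteoclast markers it was 3.63 and 3.38, and for haematopoietic markers 131 and 1067. The part of molecules from other cells in these differences was not tested.

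**Figure D5:**
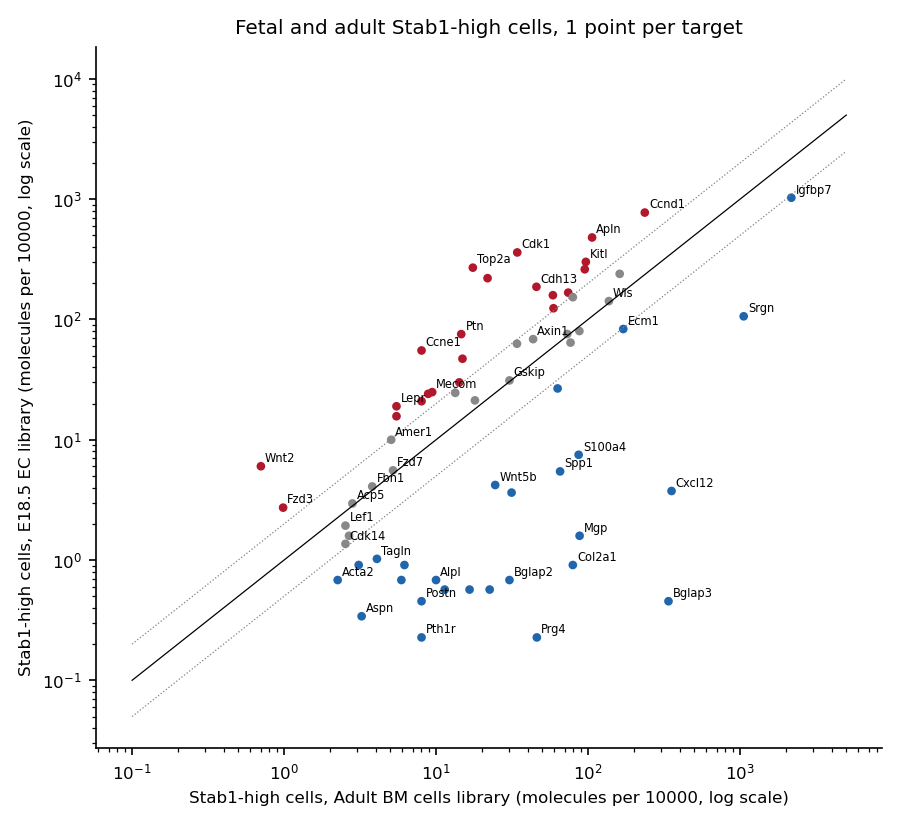
Level of 66 targets with molecules in both groups in Stab1-high cells of E18.5 EC (y axis) and Adult BM cells (x axis), both log scales, with a line of equality and dotted 2-fold lines. Red points are called higher and blue points lower in fetal cells, not every point is named, and Top2a (270 and 17.4) and Bglap3 (0.45 and 338) lie far from equality.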

How the data were processed

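After sorting or depletion, single cells were captured in wells, each transcript received a unique molecular identifier (UMI), and a custom panel of targets was amplified (BD Rhapsody). Per the file headers the authors used the BD Targeted Rhapsody Analysis Pipeline 1.8, while the methods name an earlier release, and the submitters' notes give mm10. The deposited values are counts of molecules per cell and amplicon, not normalized, as raw counts, after recursive (RSEC) and after distribution-based (DBEC) error correction. DBEC counts were summed per cell and symbol. The second correction drops molecules with few reads and kept different shares in different libraries. All cells had at least 20 molecules. No doublet caller was run, and the limits on Ptprc and Gja4 remove some doublets.

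Levels, exact Poisson, conditional and Clopper-Pearson 95% intervals and thinning to 50 molecules were obtained with scipy 1.17.1 and numpy 2.4.6 under Python 3.11.15, after tests on simulated data. Tables used pandas 2.3.3 and plots matplotlib 3.10.9. With 1 library per group no p-value was computed. A count of 0 was taken to allow 3 counts over the group. Members, marker lists and named genes were chosen with earlier results of these data known. Named were the genes of the rule and Lepr, the 10 most counted targets, targets past 2-fold with at least 30 molecules and up to 4 targets of each list, and targets outside this rule, such as Bglap3 and Wnt9b, were chosen after their values were seen. Gene positions are from GENCODE on GRCm38. Alternatives changed the correction, total, weighting, depth, limits and cells. Some targets that the counts include are not reported here.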

Additional observations from a re-analysis of the deposited data

Results flagged for a closer look

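The following targets had a ratio of Stab1-high to Stab1 = 0 cells on opposite sides of 1 in 2 libraries, with both counting intervals clear of 1. The difference between libraries was not tested, and each value rests on 1 library. Igfbp7 had 0.53 in E18.5 EC and 2.64 in Adult BM cells (interval 2.52 to 2.77). Stc1 had 0.76 (0.65 to 0.89) and 9.42 (6.10 to 15.3). Srgn had 1.16 (1.01 to 1.34) and 0.36 (0.35 to 0.37). Between E18.5 EC and E18.5 BM cells, Apln had 1.14 and 0.60, Ccnd1 1.08 and 0.79, and Mgp 0.0602 and 3.26, the last from 55 molecules of which 53 lay in 1 cell. Without that cell the Mgp ratio in E18.5 BM cells was 0.125.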

How the results depend on the processing

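Members were compared with Stab1 = 0 cells under 18 alternatives, of which those without arterial or mural molecules, without Wnt2 and without shared barcodes were chosen after seeing the data. The higher count of 10 became 23 with no minimum per target and 19 at 1.5-fold. With Stab1 = 0 cells limited to Vwf under 3, Ccne1 lost its call, Wls and Wnt5b were called higher and Kitl lower. The lower count of 8 became 4 with RSEC-adjusted values, 5 with RSEC-adjusted cells and values, 13 with raw molecules, 21 with no minimum, 5 with a minimum of 50 molecules and 5 without cells with arterial or mural molecules. Leaving out the minimum changed the counts of 6 and 6 in E18.5 BM cells to 18 and 23. Of the settings that keep a 2-fold limit and a minimum, 16 in all, Fzd5 and Lgr4 kept their call in 16, and Myc and Fbn1 in 15 (Myc was at 1.86 with RSEC-adjusted cells and values). Cxcl12 rose to 2.003 without arterial or mural molecules, and with RSEC-adjusted cells and values Mgp was at 1.21 and Mmp13 at 0.92 and the cause was not tested. The members' share of gated cells, 42.04%, was 46.6% with RSEC-adjusted counts, 52.9% with Stab1 of 2 or more, 27.03% with 5 or more and 55.1% with no limit on Vwf. Against adult cells the median shift was 0.12 (log2) with RSEC-adjusted molecules and 0.22 without the rule's genes in the total. Leaving out the member with most of the target, also chosen after seeing the data, turned Mgp in E18.5 BM cells to 0.125 and ended the Myc call there (1.70) and the Ccn3 call against Vwf-bearing cells (1.74). No paired analysis was possible because each group is 1 library, and for the same reason no library could be left out. Depth limits rare targets such as Wnt ligands, for which a count of 0 in members allows a level of up to 0.34.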
